A study of Mus musculus with 8 samples.

Results

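The stem-cell genes Dppa2, Dppa3, Dppa4, Dppa5a, Lin28a, Sall4, Nr0b1 and Zfp42 were followed in nascent RNA of mouse embryonic stem cells. They were taken by symbol, and all 8 had a row in the deposited table of 16940 genes. RNA made during a 15 min pulse of 400 µM 4-thiouridine was captured and sequenced (TT-seq), so a value reports how much of a gene was being transcribed rather than how much RNA had accumulated. The E14 cells of every group carried CTCF with an auxin-inducible degron (AID), a tag through which the auxin IAA has the protein broken down, and were grown without serum in LIF with the inhibitors PD0325901 (of MEK) and CHIR99021 (of GSK3). An overexpression control line was measured without IAA and with IAA for 12 h. A line overexpressing wild-type CTCF and a line overexpressing a mutated CTCF were both measured with IAA for 12 h. Each of the 4 groups had 2 replicates, and nothing in the labels says whether these were separate cultures. The p-values therefore measure the spread between these libraries, which may be technical. The fit shares that spread among genes of like level, so a p-value does not rest on a gene's own replicates alone. The labels name neither the mutation nor the promoter of the overexpressed CTCF, and do not say whether a line is a single clone. A difference between lines and a difference between the CTCF forms they carry therefore cannot be told apart.

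The name Dppa, for developmental pluripotency associated, was given for shared expression in early embryos and stem cells, and its bearers are not one protein family. Dppa2 and Dppa4 are partner chromatin proteins with a SAP domain that bind together at CpG-rich promoters and are needed to switch on genes of the early embryo such as Dux. Dppa3 (Stella) keeps the methylation factor UHRF1 off chromatin, and Dppa5a (Esg1) is an RNA-binding protein with a KH domain. Lin28a binds precursors of the let-7 microRNAs and blocks their maturation, and Sall4 is a zinc-finger factor that recruits the NuRD repressor complex. Nr0b1 (Dax1) is an X-linked orphan nuclear receptor that restrains other nuclear receptors, and Zfp42 (Rex1) is a zinc-finger protein related to Yy1 that is widely used as a marker of naive stem cells.

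Promoter sequence was at hand for 3 of the 8 genes, from RefSeq on GRCm38.p6, and is shown for all 3. With mutated CTCF, Lin28a was lower, Nr0b1 higher and Zfp42 little changed against the control with IAA. Each run is the 250 bases before the RefSeq start of the gene, 5′ to 3′ on the strand of the gene, and capitals mark a match to a motif that was searched. The Lin28a run lies at chr4:134018817-134019066 (minus strand), the Nr0b1 run at chrX:86191525-86191774 (plus strand) and the Zfp42 run at chr8:43307010-43307259 (minus strand).
Lin28a: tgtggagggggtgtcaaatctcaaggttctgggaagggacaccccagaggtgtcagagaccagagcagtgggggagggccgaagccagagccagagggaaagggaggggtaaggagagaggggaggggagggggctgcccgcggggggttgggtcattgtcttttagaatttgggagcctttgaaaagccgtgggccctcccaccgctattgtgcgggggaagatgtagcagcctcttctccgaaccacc
Nr0b1: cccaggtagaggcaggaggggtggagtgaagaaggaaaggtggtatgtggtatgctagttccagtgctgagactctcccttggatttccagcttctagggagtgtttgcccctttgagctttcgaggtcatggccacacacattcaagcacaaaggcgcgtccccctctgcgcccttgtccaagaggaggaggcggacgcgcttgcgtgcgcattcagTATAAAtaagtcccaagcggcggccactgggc
Zfp42: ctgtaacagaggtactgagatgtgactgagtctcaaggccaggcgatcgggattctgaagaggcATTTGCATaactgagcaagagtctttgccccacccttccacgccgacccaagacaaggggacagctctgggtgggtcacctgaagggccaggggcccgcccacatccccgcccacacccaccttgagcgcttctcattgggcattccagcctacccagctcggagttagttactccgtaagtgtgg
Both strands were searched for the octamer ATGCAAAT, the nuclear receptor sequence AAGGTCA, 2 forms of the CTCF core motif, of which the looser includes the stricter, and TATAAA. The Zfp42 run holds the octamer, which Pou5f1 is known to bind, on the reverse strand at 186 to 179 bases before the start, a motif found in 1.60% of 32851 promoter windows of that length. The Nr0b1 run holds TATAAA on the gene's own strand at 32 to 27 bases before the start, and 12.4% of windows hold it on either strand. The letters AAGGTCA (4.08% of windows) and the stricter and looser CTCF core (0.295% and 1.02%) are in none of these 3 windows, and the Lin28a run has no match to any of the 5 motifs. The runs of Lin28a, Nr0b1 and Zfp42 hold 7, 11 and 9 CG dinucleotides, against a median of 6 over all windows with quartiles of 2 and 16. Dppa2, Dppa3, Dppa4, Dppa5a and Sall4 are named only.

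The libraries held 15671114 to 21561141 reads recovered from the deposited values. All 6 embryonic stem cell markers were listed, and summed per library to 39107 to 39920 normalized reads in the untreated control, 42838 to 44256 with IAA, 45756 to 48849 with wild-type CTCF and 46746 to 49226 with mutated CTCF. With IAA, Tfcp2l1 rose from a mean of 13438 to 18581 and Esrrb fell from 15464 to 13987. Tdgf1 was higher (0.13, adjusted p = 0.011), while Pou5f1, Nanog and Klf4 gave 0.04, -0.01 and 0.10 (adjusted p = 0.67, 0.84 and 0.10). The listed primitive endoderm markers (4 of 5) summed to 838 to 896, 984 to 1014, 972 to 1028 and 883 to 967 in the group order above, of which Sparc alone made at most 786. The trophectoderm markers (3 of 5) summed to 27.6 to 32.8, 14.3 to 26.4, 34.97 to 35.30 and 27.7 to 29.3. The markers of primed or mesoderm cells (3 of 5) summed to 130 to 134 in the untreated control, 92.4 to 116 with IAA, 157 to 164 with wild-type CTCF and 81.5 to 104 with mutated CTCF. Of these, Eomes (-0.81, adjusted p = 0.0027) and Otx2 (-0.73, adjusted p = 0.0028) were lower with mutated than with wild-type CTCF, as were Dppa2, Dppa3, Lin28a, Sall4 and Zfp42 below. The neural markers (2 of 3) summed to 156 to 159 in the untreated control, 221 to 223 with IAA, 223 to 263 with wild-type CTCF and 274 to 284 with mutated CTCF. Nes alone made 151 and 149 in the untreated control and 281 and 268 with mutated CTCF. It was the 1 neural marker high enough to test. Of 4 feeder fibroblast markers, 0 were listed. The part of all these markers in the results below was not tested.

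Levels are given as normalized reads, which are read counts divided by one factor per library and are not corrected for gene length, so they compare libraries and not genes. Differences are log2 fold changes on the log2(value + 1) scale with the standard error (SE) of a limma fit to all 8 libraries, and a gene was called where its Benjamini-Hochberg adjusted p over the 15818 tested genes was below 0.05. IAA in the control line moved 5 of the 8 genes, 2 higher (Dppa3, Lin28a) and 3 lower (Nr0b1, Dppa4, Zfp42), where 37.7% of all tested genes were called (19.4% higher and 18.4% lower). The line with wild-type CTCF gave 4 calls against the control with IAA, with Lin28a, Sall4 and Zfp42 higher and Dppa3 lower, against 31.6% of all tested genes (21.5% higher). Mutated CTCF against the same control gave 5 calls, with Nr0b1 and Zfp42 higher and Dppa2, Dppa3 and Lin28a lower, against 34.3% (22.0% higher and 12.4% lower). Between the 2 forms, Dppa2, Dppa3, Lin28a, Sall4 and Zfp42 were lower with mutated than with wild-type CTCF and Nr0b1 was higher, 6 calls against a background of 34.7% (16.3% higher and 18.4% lower). The median of the 8 differences between mutated and wild-type CTCF was -0.23, beside -0.0087 over all tested genes.

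**Figure D1:**
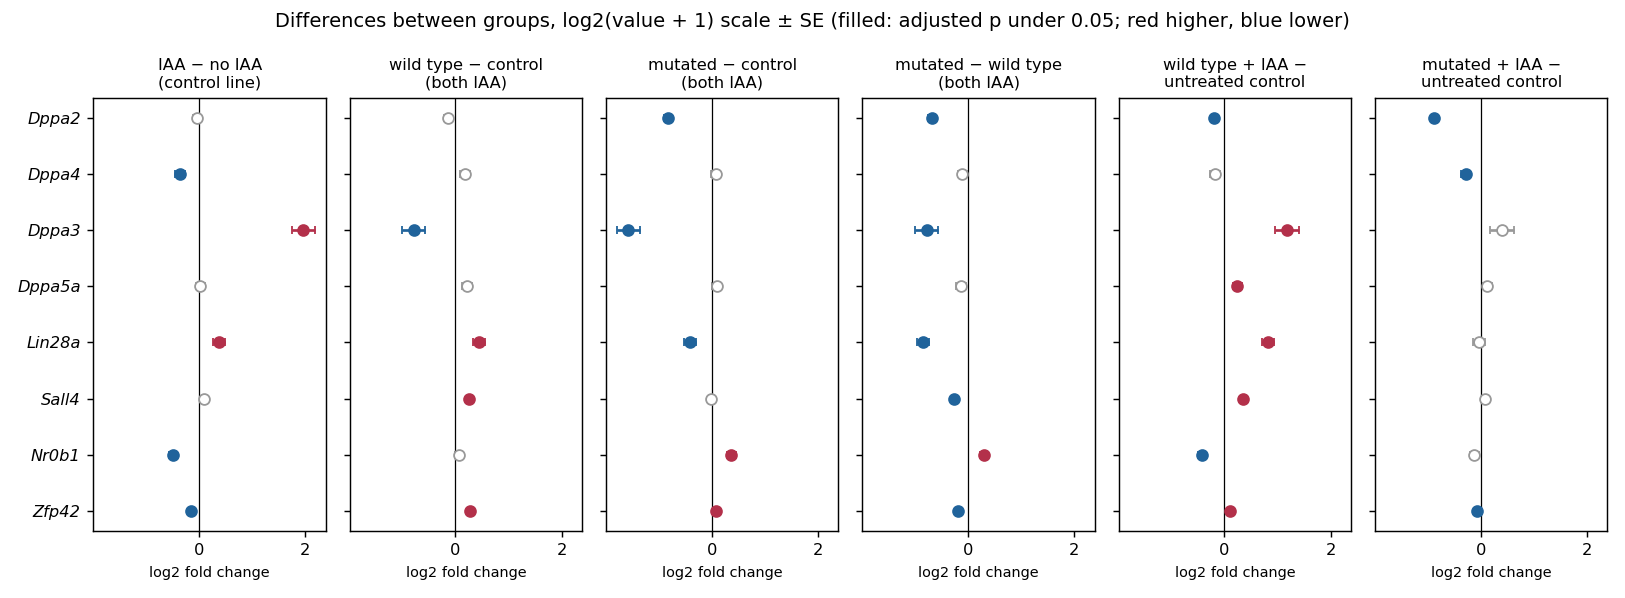
Log2 fold changes of the 8 genes in the 6 comparisons, 1 panel per comparison, on the log2(value + 1) scale. Points are the fitted values, bars their SE, and filled points (red higher, blue lower) were called at an adjusted p below 0.05. Dppa3 reaches 1.96 with IAA, and 6 of the 8 genes are called between mutated and wild-type CTCF, 5 of them lower.

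Taking the untreated control as the base, the wild-type line with IAA differed in 7 of the 8 genes (5 higher and 2 lower) and mutated CTCF with IAA in 3, each of them lower. The backgrounds were 43.2% of tested genes for wild-type CTCF (27.6% higher and 15.6% lower) and 37.8% for mutated CTCF (13.7% lower). The count of 3 became 1 without replicate 1 of the untreated control or without replicate 2 of the mutated line, and the 2 comparisons share their control libraries. Those 3 genes were Dppa2, Dppa4 and Zfp42.

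Dppa2 was lowest in the mutated line. Its normalized reads were 843 and 801 in the untreated control (mean 822 ± 29.5, SD, n = 2), 759 and 839 in the control with IAA (799 ± 56.9), 739 and 705 with wild-type CTCF (722 ± 23.9) and 435 and 464 with mutated CTCF (449 ± 20.5). Both libraries of the mutated line lay below all other 6, whose groups overlapped or nearly met. Against the control with IAA the log2 fold change of the mutated line was -0.83 (SE 0.068, adjusted p = 6.7e-13), a 1.78-fold difference. It was also lower than the wild-type line (-0.68, adjusted p = 1.1e-10) and than the untreated control (-0.87, adjusted p = 1.1e-13). IAA alone gave -0.04 (adjusted p = 0.67). Wild-type CTCF gave -0.14 against the control with IAA (adjusted p = 0.099), which passed the threshold under both other scalings (-0.20 and -0.18, adjusted p = 0.012 and 0.031). With a library left out, this difference ranged from -0.22 to -0.072. The call of wild-type CTCF against the untreated control (-0.19, adjusted p = 0.023) was lost without any 1 of 3 libraries, both untreated controls and replicate 2 of the wild-type line, with values of -0.15 to -0.22, with trends on GC content and gene length removed (-0.12, adjusted p = 0.14) and without the mean-variance trend of the fit (adjusted p = 0.10).

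Dppa4, the partner of Dppa2, lies on the same strand of chromosome 16 (chr16:48283733-48294237, GENCODE M21 on GRCm38), and ends 9.7 kb before Dppa2 begins (chr16:48303908-48319723). Its values were 380 and 363 normalized reads in the untreated control (372 ± 12.3), 300.2 and 280.5 with IAA (290.3 ± 13.9), 322 and 335 with wild-type CTCF (328 ± 9.3) and 326 and 286 with mutated CTCF (306 ± 28.5). The untreated libraries were above all others, and the mutated line overlapped both the wild-type line and the control with IAA. IAA lowered Dppa4, giving -0.36 on the log2 scale (SE 0.090, adjusted p = 0.0016). Neither CTCF form differed detectably from the control with IAA (0.18 and 0.07, adjusted p = 0.13 and 0.58), nor from the other form (-0.10, adjusted p = 0.39). Wild-type CTCF gave -0.18 against the untreated control (adjusted p = 0.11), which was called under both other scalings (-0.23 and -0.26, adjusted p = 0.027 and 0.014). The mutated line stayed below the untreated control (-0.28, adjusted p = 0.011), a call that was lost without replicate 1 of the untreated control (-0.25, adjusted p = 0.12) or replicate 2 of the mutated line (-0.19, adjusted p = 0.20), and without the mean-variance trend (adjusted p = 0.054).

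The balance of the 2 partner genes can be read within each library, since any factor of the library cancels. Normalized reads of Dppa2 over those of Dppa4 gave ratios of 2.22 and 2.21 in the untreated control, 2.53 and 2.99 with IAA, 2.30 and 2.11 with wild-type CTCF and 1.33 and 1.62 with mutated CTCF. The 2 ratios of the mutated line were below the other 6, and those of the control with IAA above them. This ratio was taken after the values of both genes were seen, and is given without a test. Parts of both transcripts recur in other annotated genes, 6 for Dppa2 and 2 for Dppa4 at 90% identity or more over at least 150 bases, none of them in the table, and how such reads were assigned is not given in the sources used here.

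Dppa3 had the widest range of the 8 genes, with a 3.90-fold gap between its lowest and highest group. Its normalized reads were 20.1 and 35.3 in the untreated control (27.7 ± 10.8), 100.1 and 114 with IAA (107 ± 10.1), 65.6 and 57.8 with wild-type CTCF (61.7 ± 5.5) and 39.7 and 31.6 with mutated CTCF (35.7 ± 5.7). The 2 control libraries with IAA were above all others, the wild-type line lay between, and the mutated line overlapped the untreated control. IAA raised Dppa3 by 1.96 on the log2 scale (SE 0.22, adjusted p = 1.9e-09). The primitive endoderm marker Pdgfra, a growth factor receptor, rose with IAA as well, from a mean of 19.1 ± 4.6 to 67.8 ± 10.3 normalized reads (SD, n = 2), and had 62.4 ± 4.1 with wild-type and 62.0 ± 0.45 with mutated CTCF. Of the other listed markers of that cell type, Gata4 also rose with IAA (0.64, adjusted p = 3.6e-04), Gata6 fell (-0.59, adjusted p = 0.024) and Sparc gave 0.10 (adjusted p = 0.25). The part of these markers in the result was not tested. In bulk RNA, a change in how many cells transcribe a gene and a change in transcription per cell cannot be told apart.

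Both CTCF forms went with less Dppa3 than the control with IAA. The difference was -0.79 for wild-type CTCF (adjusted p = 0.0060) and -1.57 for mutated CTCF (adjusted p = 4.6e-07), and the mutated line was the lower of the 2 (-0.78, adjusted p = 0.0057). Wild-type CTCF remained above the untreated control (1.18, adjusted p = 3.9e-05), by 0.78 without replicate 1 of that control. The mutated line gave 0.40 against the same control (adjusted p = 0.16), and 0.79 (adjusted p = 0.019) without replicate 2 of the untreated control. Dppa3 rests on 24 to 104 recovered reads a library. Its call between the forms was lost without replicate 2 of the mutated line (-0.62, adjusted p = 0.067), and its call for wild-type CTCF without replicate 2 of the control with IAA (-0.69, adjusted p = 0.078). Both were also lost without the mean-variance trend of the fit (adjusted p = 0.097 and 0.10). The gene lies at chr6:122626410-122630272 (plus strand), and its transcript has 2 close copies elsewhere, none in the table.

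**Figure D2:**
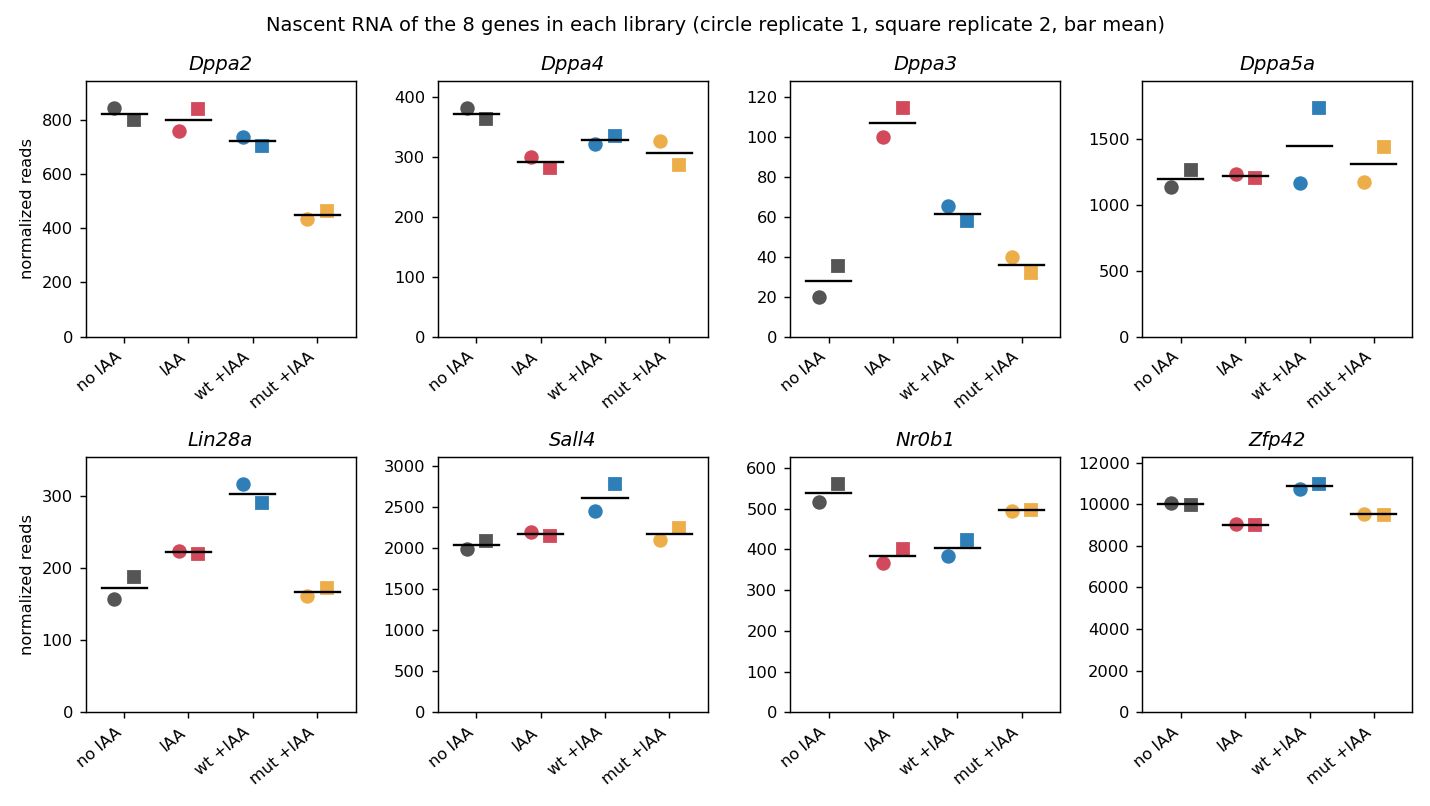
Normalized reads of each of the 8 genes in every library, 1 panel per gene with its own axis. Circles and squares are replicates 1 and 2 of each of the 4 groups, named on the horizontal axis, and lines mark the group means. The 2 libraries of the mutated line are the lowest of Dppa2, the 2 control libraries with IAA the highest of Dppa3, and the 2 libraries of the wild-type line the highest of Lin28a.

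Dppa5a (chr9:78367052-78368177, minus strand) showed its widest spread between replicates of 1 group. The untreated control had 1135 and 1269 normalized reads (1202 ± 94.6), the IAA-treated control 1235 and 1205 (1220.3 ± 21.1), the wild-type line 1167 and 1735 (1451 ± 402) and the mutated line 1179 and 1439 (1309 ± 184). All 4 groups overlapped, with 1 high library in each overexpressing line. In the wild-type line replicate 2 was 1.49-fold above replicate 1, 10.7 times the counting error of that ratio, and in the mutated line 1.22-fold, 5.04 times. IAA gave 0.02 (SE 0.090, adjusted p = 0.86), wild-type CTCF 0.22 (adjusted p = 0.057), mutated CTCF 0.09 (adjusted p = 0.46) and mutated against wild-type CTCF -0.13 (adjusted p = 0.28). Only wild-type CTCF against the untreated control was called (0.25, adjusted p = 0.026), and it was -0.04 (adjusted p = 0.69) without replicate 2 of the wild-type line and lost its call without either untreated library (0.17 and 0.33, adjusted p = 0.36 and 0.060) and under both other scalings (0.19 and 0.16, adjusted p = 0.069 and 0.12), and without the mean-variance trend (adjusted p = 0.39). The value of 0.22 against the IAA-treated control was called with GC content and gene length removed (0.24, adjusted p = 0.0045), with a pseudocount of 10 (adjusted p = 0.043) and with a minimum mean of 50 (adjusted p = 0.048). Without replicate 1 of the wild-type line, the difference from the IAA-treated control was 0.51 (adjusted p = 3.8e-11) and that between the forms -0.41 (adjusted p = 6.3e-08), while without its replicate 2 both changed sign, to -0.064 (adjusted p = 0.56) and 0.16 (adjusted p = 0.068). Leaving out replicate 1 of the mutated line gave 0.24 for mutated CTCF against the IAA-treated control (adjusted p = 0.049), 0.26 against the untreated control (adjusted p = 0.025) and 0.016 between the forms (adjusted p = 0.92). Leaving out its replicate 2 gave -0.050 (adjusted p = 0.75), -0.026 (adjusted p = 0.88) and -0.27 (adjusted p = 0.022). Without either library of the mutated line, wild-type CTCF against the IAA-treated control was called (0.22, adjusted p = 0.020). Stretches of its transcript match 10 other annotated genes, 1 of them in the table. This is Pigp, named after the match was seen, which is alike over 417 bases (95.9% identity) and had 108 to 165 normalized reads.

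Lin28a was highest with wild-type CTCF and near its untreated level with mutated CTCF. Its normalized reads were 157 and 187 in the untreated control (172 ± 21.2), 224 and 220.0 with IAA (222 ± 2.8), 316 and 290 with wild-type CTCF (303 ± 18.8) and 162 and 173 with mutated CTCF (167 ± 7.8). The wild-type libraries lay above all others, the control with IAA came next, and the mutated line fell between the 2 untreated libraries. IAA raised Lin28a by 0.37 on the log2 scale (SE 0.11, adjusted p = 0.0066), and wild-type CTCF was higher still (0.45, adjusted p = 0.0017). Mutated CTCF was lower than the control with IAA (-0.40, adjusted p = 0.0034), so the 2 forms moved the gene in opposite directions from that control. Between them the difference was -0.85 (adjusted p = 5.7e-08), or 1.80-fold. Against the untreated control wild-type CTCF gave 0.82 (adjusted p = 8.6e-08) and mutated CTCF -0.03 (adjusted p = 0.84). The call for IAA was lost without replicate 1 of the untreated control (0.25, adjusted p = 0.18). Lin28a lies at chr4:134003330-134018841 on the minus strand, and no close copy of its transcript was found.

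Sall4 was highest with wild-type CTCF. The gene (chr2:168748332-168767943, minus strand) had 1985 and 2079 normalized reads in the untreated control (2032 ± 66.5), 2191 and 2147 with IAA (2169 ± 30.8), 2443 and 2774 with wild-type CTCF (2608 ± 234) and 2091 and 2237 with mutated CTCF (2164 ± 104). The wild-type libraries were above the other 6, which lay close together. Wild-type CTCF was above the control with IAA by 0.26 on the log2 scale (SE 0.050, adjusted p = 6.7e-05) and above the untreated control by 0.36 (adjusted p = 1.6e-07), and mutated against wild-type CTCF gave -0.27 (adjusted p = 4.1e-05). Without replicate 2 of the wild-type line the difference from the control with IAA was 0.17 (adjusted p = 0.015) and that between the forms -0.18 (adjusted p = 0.0098). Both of these last calls were lost without the mean-variance trend of the fit (adjusted p = 0.075 against the control with IAA and 0.063 between the forms). IAA gave 0.09 (adjusted p = 0.14), which was called once trends on GC content and gene length were removed (0.12, adjusted p = 0.048), and mutated CTCF against the control with IAA gave -0.0040 (adjusted p = 0.96). The antisense gene Gm14261 overlaps Sall4. The libraries were strand-specific per the labels' protocols, but the strand setting of the counting is not given in the sources used here. Gm14261 had 11.7 and 10.3 normalized reads in the untreated control, 11.9 and 7.70 with IAA, 20.1 and 24.6 with wild-type CTCF and 13.6 and 18.8 with mutated CTCF. Like Sall4 it rose in the wild-type line, by 1.13 over the IAA-treated control (adjusted p = 0.013) and by 0.95 over the untreated one (adjusted p = 0.028), and reads of the 2 genes cannot be told apart if strand was not used.

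Nr0b1 ran the other way. On chromosome X (chrX:86191764-86195947, plus strand), it had 517 and 560.3 normalized reads in the untreated control (538 ± 31.0), 366 and 401 with IAA (384 ± 25.3), 383 and 424 with wild-type CTCF (403 ± 28.8) and 495 and 497 with mutated CTCF (496 ± 1.4). The wild-type line and the control with IAA overlapped and were the low groups, while the mutated line came close below the untreated control. IAA lowered Nr0b1, giving -0.49 on the log2 scale (SE 0.079, adjusted p = 3.5e-06). Mutated CTCF was higher than the control with IAA (0.37, adjusted p = 0.00027) and wild-type CTCF gave 0.07 (adjusted p = 0.53). The mutated line was higher than the wild-type line by 0.30 (adjusted p = 0.0028), which missed the threshold without replicate 1 of the wild-type line (0.23, adjusted p = 0.052) or without the mean-variance trend (adjusted p = 0.051). Against the untreated control wild-type CTCF was lower (-0.42, adjusted p = 4.2e-05) and mutated CTCF gave -0.12 (adjusted p = 0.26), or -0.20 with equal library totals (adjusted p = 0.027).

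Zfp42 (chr8:43295063-43306980, minus strand) changed little in size but its replicates were close. It had 10059 and 9982 normalized reads in the untreated control (10020.5 ± 55.1), 9043 and 8980.4 with IAA (9012 ± 44.4), 10741 and 10962 with wild-type CTCF (10852 ± 157) and 9507 and 9499 with mutated CTCF (9503 ± 5.2). No 2 groups overlapped, and the order from low to high was control with IAA, mutated CTCF, untreated control and wild-type CTCF. IAA lowered Zfp42, giving -0.15 on the log2 scale (SE 0.030, adjusted p = 7.3e-05), which was -0.091 (adjusted p = 0.036) once trends on GC content and gene length were removed. Wild-type CTCF was 0.27 above the control with IAA (adjusted p = 3.5e-09), and mutated against wild-type CTCF gave -0.19 (adjusted p = 2.7e-06). The other 3 calls were smaller. Mutated CTCF against the control with IAA gave 0.08 (adjusted p = 0.045), mutated CTCF against the untreated control -0.08 (adjusted p = 0.041) and wild-type CTCF against the untreated control 0.11 (adjusted p = 0.0019). The first was lost under both other scalings (0.025 and 0.045, adjusted p = 0.53 and 0.17), without any 1 of 6 libraries, without the mean-variance trend (adjusted p = 0.24) and with GC content and gene length removed (0.0020, adjusted p = 0.97). The second was lost without any 1 of 7 libraries, without the mean-variance trend (adjusted p = 0.23) and with only the groups compared in the fit (adjusted p = 0.080), and was larger under both other scalings (-0.13 and -0.16, adjusted p = 4.9e-04 and 3.5e-06). The third was lost under both other scalings (0.061 and 0.033, adjusted p = 0.076 and 0.30) and without the mean-variance trend (adjusted p = 0.086), and was larger with GC content and gene length removed (0.18, adjusted p = 2.0e-05). Zfp42-ps1, which matches 266 bases of the Zfp42 transcript at 98.1% identity, had 55.2 to 88.8 normalized reads.

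The nearest tested genes on either side, and those within 100 kb, gave 24 neighbours that are not among the 8. IAA moved 13 of them, 6 higher and 7 lower, wild-type CTCF 14 (8 higher, 6 lower), mutated CTCF 8 (7 higher, 1 lower), and 10 differed between the forms (7 higher with mutated CTCF, 3 lower). Over all tested genes the shares called were 37.7%, 31.6%, 34.3% and 34.7%, and the 8 of 24 with mutated CTCF are close to theirs. Beside Dppa3, Gdf3 (16.3 kb away), a signalling protein of the TGF-beta family, rose with IAA by 0.27 (adjusted p = 5.4e-04) and gave 0.02 and -0.04 with wild-type and mutated CTCF (adjusted p = 0.85 and 0.64). Apobec1 (24.0 kb), an RNA-editing deaminase, rose with IAA by 0.27 (adjusted p = 0.0013) and was lower with wild-type CTCF (-0.70, adjusted p = 6.2e-11), but gave 0.03 with mutated CTCF. Its normalized reads were 719 and 718 with IAA, 448 and 438 with wild-type CTCF and 727 and 742 with mutated CTCF. Dppa3 and Apobec1 thus both fell with wild-type CTCF, and in the mutated line Dppa3 was lower and Apobec1 higher than in the wild-type line (-0.78 and 0.73). Nanog (77.2 kb), a core pluripotency factor, was 0.35 higher with wild-type CTCF (adjusted p = 3.9e-10) and 0.17 higher with mutated CTCF, and gave -0.01 with IAA. Mfap5 (97.1 kb), a microfibril protein with few reads, moved as Apobec1 did with IAA (1.10, adjusted p = 0.0048) and with wild-type CTCF (-1.14, adjusted p = 0.0046), and was not called with mutated CTCF or between the forms. Slc2a3 (97.5 kb), a glucose transporter, fell with IAA (-0.13, adjusted p = 0.0049) and was higher with wild-type and mutated CTCF (0.32 and 0.24). The pseudogene Gm10224 (68.1 kb) had no call.

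Beyond Dppa2, Morc1 (111.5 kb from it), a germ-cell transposon silencer, fell with IAA (-0.37, adjusted p = 9.9e-13), was higher with either form (0.26 for wild-type and 0.10 for mutated CTCF), and was lower with mutated than with wild-type CTCF (-0.16). Its normalized reads were 9143 and 9270 in the untreated control, 7121 and 7155 with IAA, 8507 and 8536 with wild-type CTCF and 7628 and 7674 with mutated CTCF. Dppa4 to the left and Morc1 to the right of Dppa2 therefore both fell with IAA, while Dppa2 between them gave -0.04. On the far side of Dppa4, Nectin3, a cell adhesion gene 1785 kb away, fell with IAA (-0.17, adjusted p = 2.0e-04) and was higher with mutated than with wild-type CTCF (0.10, adjusted p = 0.032).

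Near Lin28a, Hmgn2 (34.7 kb), a nucleosome-binding protein, had 399 and 406 normalized reads in the untreated control, 507 and 516 with IAA, 564 and 593 with wild-type CTCF and 404 and 423 with mutated CTCF. Its groups stood in nearly the order of those of Lin28a. Hmgn2 rose with IAA (0.35) and was lower with mutated than with wild-type CTCF (-0.48), both called. Wild-type CTCF gave 0.18 against the control with IAA and was not called, while mutated CTCF was called lower than that control, as for Lin28a. Dhdds, only 2.4 kb from Lin28a, gave -0.12 with IAA and 0.03 between the forms, neither of them called, and was higher than the control with IAA with both forms (0.24 and 0.26). Ubxn11 (83.7 kb) was also higher with both forms (0.43 and 0.33, adjusted p = 0.012 and 0.048), and Crybg2 (42.0 kb) was higher with mutated than with wild-type CTCF (0.48, adjusted p = 0.012), against the direction of Lin28a.

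Nr0b1 had Gk (414.9 kb), a glycerol kinase gene, as a neighbour. Gk fell with IAA (-0.29), was 0.23 higher with mutated CTCF and 0.41 higher with mutated than with wild-type CTCF, all called and in the direction of Nr0b1. Wild-type CTCF went below the level of the control line under IAA (-0.18, called). Il1rapl1, on the other side of Nr0b1, had no call. Beside Dppa5a, which showed no call in the 4 main comparisons, Ooep (7.9 kb), an oocyte protein with a related domain, fell with IAA (-0.49), and the glutathione transferase Gsta2 (11.3 kb) and the helicase Ddx43 (27.6 kb) rose by 1.17 and 0.81. Gsta2 and Ddx43 were lower with wild-type CTCF (-1.16 and -0.51) and higher with mutated than with wild-type CTCF (1.15 and 0.58). Cgas and Mto1, also within 100 kb of Dppa5a, had no call in the 4 main comparisons. Atp9a and Zfp64, on either side of Sall4, fell with IAA (-0.20 and -0.29) and were higher with wild-type CTCF (0.25 and 0.27). Triml2 (101.2 kb from Zfp42) gave values from -0.01 to 0.05 in the 4 main comparisons, and none was called. The small nucleolar RNA gene Gm22986 (71.0 kb), on the other side, had 15.9 and 10.3 normalized reads in the untreated control, 21.4 and 17.6 with IAA, 8.74 and 6.42 with wild-type CTCF and 28.2 and 33.6 with mutated CTCF. It was lower with wild-type CTCF (-1.26, adjusted p = 0.0039) and higher with mutated than with wild-type CTCF (1.90, adjusted p = 2.4e-05), both against the direction of Zfp42.

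**Figure D3:**
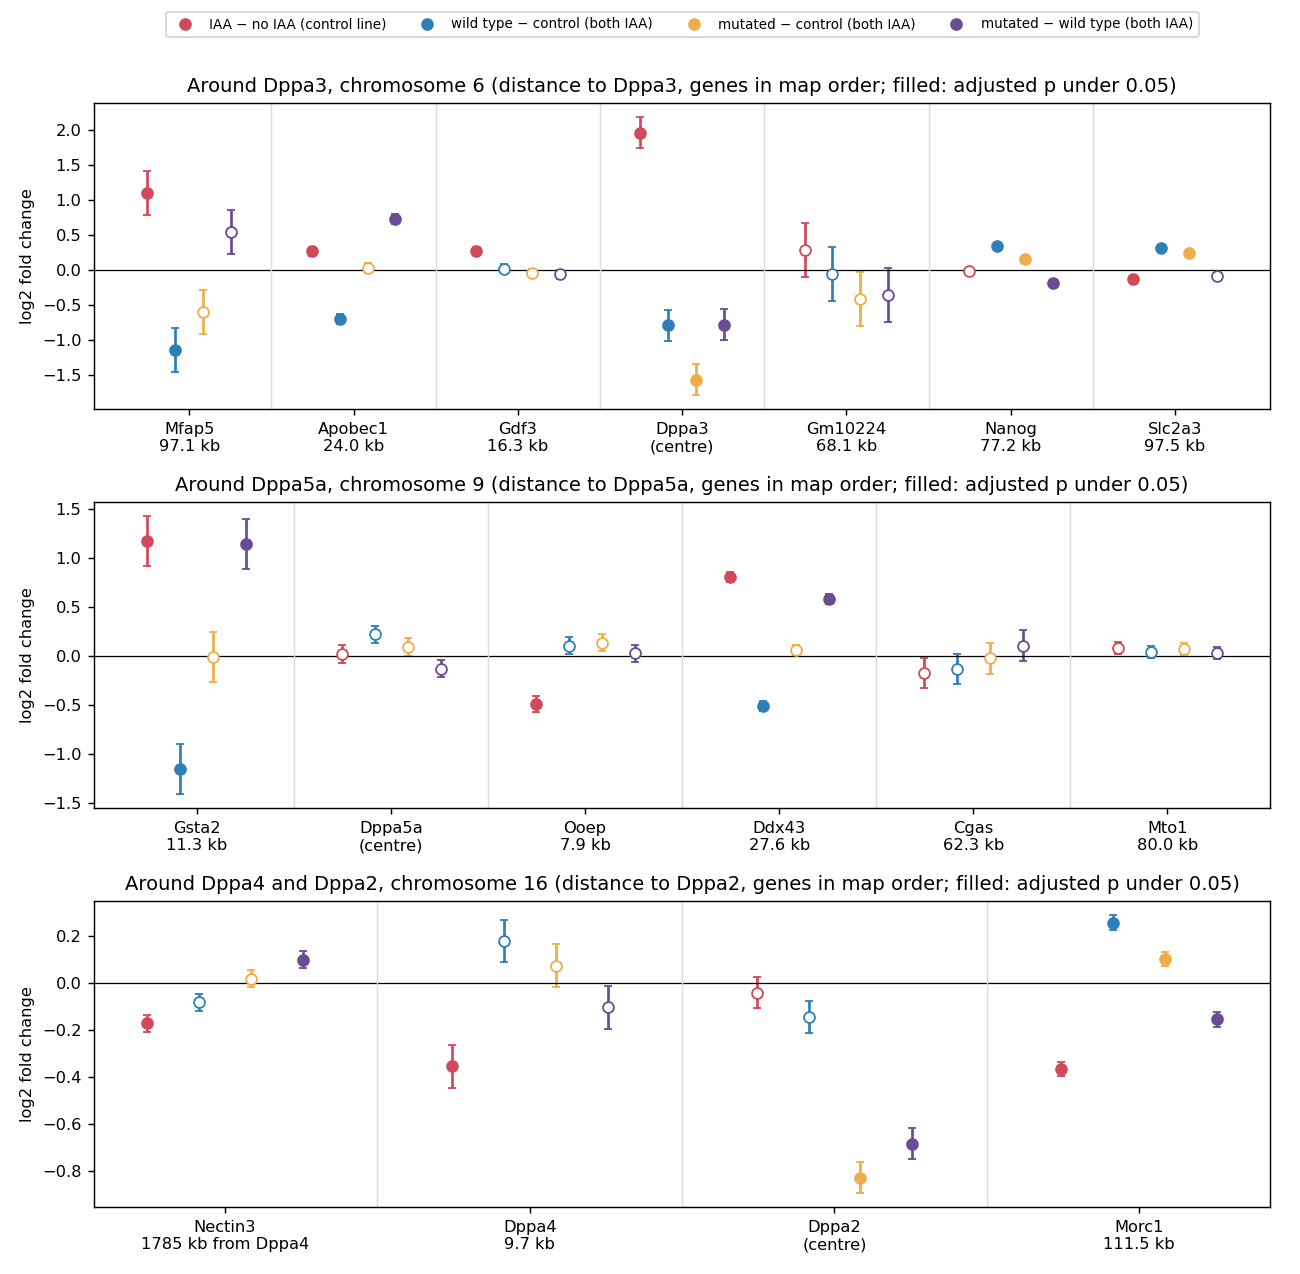
Log2 fold changes with their SE of the tested genes around Dppa3, around Dppa5a and around Dppa4 and Dppa2, 1 panel each, with genes in map order and their distance in kb under each name (not to scale). Colours are the 4 main comparisons, and filled points were called. Dppa3 rises with IAA to 1.96 while Nanog, 77.2 kb away, gives -0.01.

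Genes that work with the 8 were taken as lists by pathway, whose counts stand beside 37.7% of all tested genes called with IAA, 31.6% with wild-type CTCF, 34.3% with mutated CTCF and 34.7% between the forms. The shares called higher were 19.4%, 21.5%, 22.0% and 16.3%. Most genes of these lists had an SE below the median of 0.10 over all tested genes. They are therefore called at smaller differences, and how far this raised the counts was not tested. Of 14 regulators of naive pluripotency, all tested, IAA raised 4 and lowered 6. Among the called genes with a mean of at least 50, Tfcp2l1 (0.47) and Nr5a2 (0.20) were highest and Fgf4 (-0.54) and Klf5 (-0.46) lowest. Utf1, a chromatin protein of stem cells with a mean below 50 that was chosen after its values were seen, fell furthest (-2.24, adjusted p = 6.1e-07), from 52.7 and 43.1 normalized reads to 7.15 and 12.1, and had 12.2 and 18.2 with wild-type and 17.8 and 12.9 with mutated CTCF. Wild-type CTCF raised 10 of the 14 over the control with IAA, led by Fgf4 (0.63) and Pou5f1 (0.42), and mutated CTCF raised 8, with Fgf4 (0.31) and Klf5 (0.30) in front. The list medians were 0.17 and 0.18, beside 0.057 and 0.055 over all tested genes. With median-of-ratios library factors the medians over all tested genes were 9.0e-04 and 0.0043, and the list was not counted again there. Between the forms 4 were higher and 7 lower with mutated CTCF. The called totals of 10, 10, 8 and 11 of 14 stand beside 37.7%, 31.6%, 34.3% and 34.7% of all tested genes.

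Of 10 symbols for genes known to need Dppa2 and Dppa4, with Dux under 2 of them, 3 were listed and 2 tested. Both tested genes, the germline genes Syce1 (0.76, adjusted p = 1.0e-06) and Mael (0.63, adjusted p = 5.5e-04), rose with IAA. Mael had 98.6 and 120 normalized reads in the untreated control, 147 and 195 with IAA, 77.8 and 94.1 with wild-type CTCF and 186 and 173 with mutated CTCF. It was thus low in the untreated and wild-type groups and high in the others, and differed between the forms by 1.06 (adjusted p = 2.1e-07). Syce1 was not called between the forms.

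Of 8 genes of DNA methylation, the process in which Dppa3 acts, 7 were tested. IAA raised 3, among them the de novo methylation enzyme Dnmt3b (0.39) and Uhrf1 (0.22), and lowered Dnmt3a (-0.36). Wild-type CTCF raised 5, with Dnmt1 (0.27) and Tet1 (0.16) in front, and mutated CTCF raised Uhrf1 and Tet1 (0.17 and 0.16) and lowered Tet3 and Tet2 (-0.16 and -0.10). Between the forms 3 were lower with mutated CTCF, including Dnmt3b (-0.25) and Tet2 (-0.22). The totals called of the 7, which were 4 with IAA, 5 with wild-type CTCF, 4 with mutated CTCF and 3 between the forms, stand beside 37.7%, 31.6%, 34.3% and 34.7% of all tested genes.

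Around Lin28a, 15 partners and let-7 targets were tested. IAA raised 6, led by Arid3b (0.70) and Ago2 (0.39), and lowered Lin28b (-0.64) and Mycn (-0.42). Wild-type CTCF raised 7 and lowered 3, mutated CTCF raised 4 and lowered 2, and 2 were higher and 5 lower with mutated than with wild-type CTCF. The 8 and 10 of 15 called with IAA and wild-type CTCF stand beside 37.7% and 31.6% of all tested genes, and the 6 with mutated CTCF and 7 between the forms are nearer to their shares of 34.3% and 34.7%. Hmga2, a chromatin protein and classical let-7 target, had 679 and 684 normalized reads in the untreated control, 896 and 858 with IAA, 964 and 1006 with wild-type CTCF and 463 and 468 with mutated CTCF. The libraries of the mutated line were below all others, with log2 fold changes of -0.91 against the control with IAA (adjusted p = 6.1e-15) and -1.08 against wild-type CTCF (adjusted p = 4.2e-17). Lin28b, the paralog of Lin28a, had 368 and 385 normalized reads in the untreated control, 245 and 238 with IAA, 325 and 304 with wild-type CTCF and 234 and 205 with mutated CTCF. IAA thus lowered Lin28b where it raised Lin28a, while both paralogs were higher with wild-type CTCF (0.38 and 0.45) and lower with mutated than with wild-type CTCF (-0.52 and -0.85).

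Of 14 paralogs of Sall4 and subunits of NuRD, IAA raised 2 (Chd4, 0.32, and Rbbp7, 0.19) and lowered 3, Sall1 (-0.33), Mta3 (-0.22) and, with a mean below 50 and chosen after its values were seen, Sall2 (-0.80). Wild-type CTCF raised 9, led by Mbd3 (0.32) and Mta2 (0.28), and mutated CTCF raised 6, led by Mta3 (0.41) and Sall1 (0.30). Between the forms 3 were higher and 1, Mbd3 (-0.36), was lower with mutated CTCF. The 5 of 14 called with IAA and 4 between the forms are near the 37.7% and 34.7% of all tested genes, while the 9 with wild-type and 6 with mutated CTCF stand beside 31.6% and 34.3%.

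Among relatives and partners of Nr0b1 and Zfp42, 5 of 8 were tested. All 5 were called with IAA, 3 with wild-type CTCF, 4 with mutated CTCF and 4 between the forms. IAA raised Rlim (0.29), the ubiquitin ligase that targets Zfp42, Nr5a2 (0.20), a nuclear receptor held back by Nr0b1, and Nr6a1 (0.18), and lowered Esrrb (-0.14) and Yy1 (-0.14). The germ cell nuclear factor Nr6a1 was lower with mutated CTCF than in the control with IAA (-0.70, adjusted p = 6.6e-19) and than with wild-type CTCF (-0.67, adjusted p = 2.6e-18), with 3619 and 3499.6 normalized reads against 5762 and 5816 with IAA. Of the oocyte complex to which relatives of Dppa5a belong, 2 of 9 genes were listed. Ooep is described above, and Tle6, which falls outside the naming rule and was chosen after its values were seen, had 17.6 and 15.5 normalized reads in the untreated control, 41.7 and 35.2 with IAA, 37.6 and 49.2 with wild-type CTCF and 13.6 and 18.8 with mutated CTCF. It rose with IAA (1.17, adjusted p = 7.6e-04) and was lower with mutated than with wild-type CTCF (-1.37, adjusted p = 1.3e-04).

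**Figure D4:**
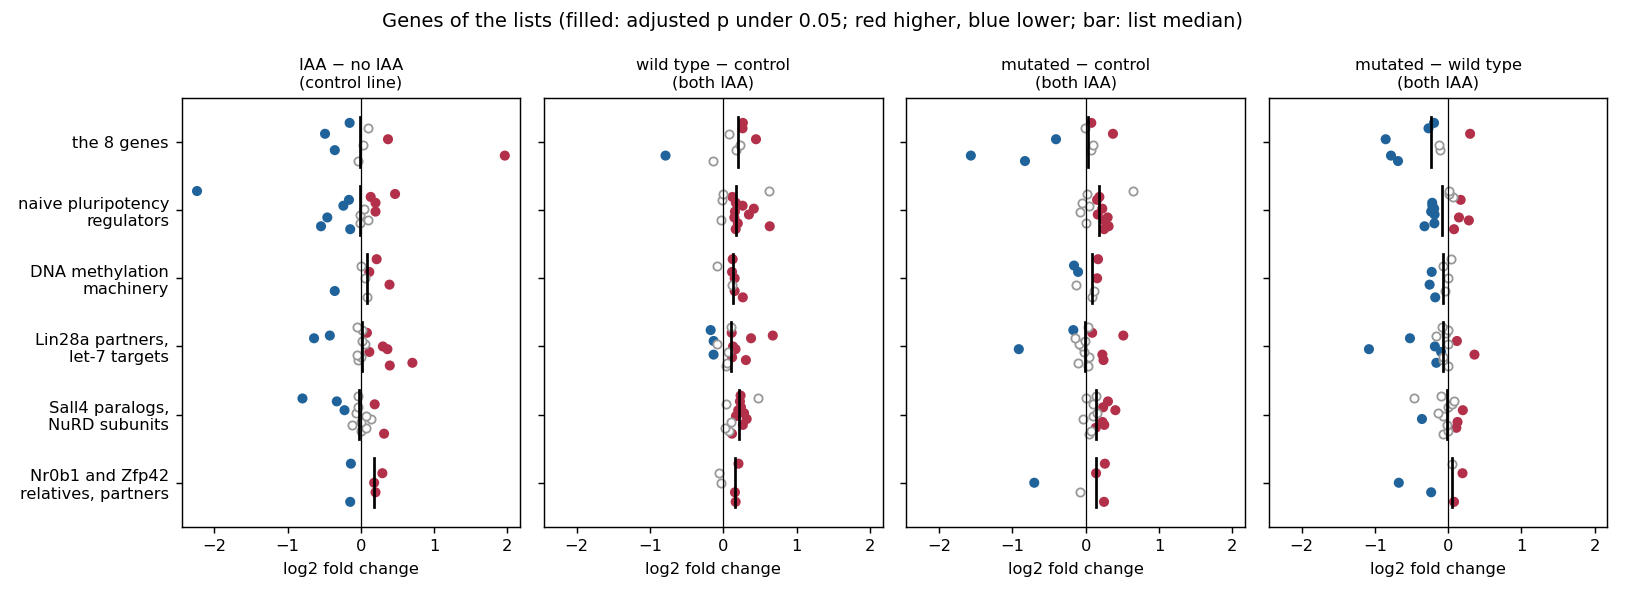
Log2 fold changes of the 8 genes and of the tested genes of 5 pathway lists in the 4 main comparisons, 1 panel each. Points are genes, filled where called (red higher, blue lower), and the vertical bar is the median of the list. Wild-type and mutated CTCF raised 10 and 8 of the 14 regulators of naive pluripotency, where 21.5% and 22.0% of all tested genes were called higher. Most listed genes had an SE below the median of 0.10 over all tested genes, and are called at smaller differences.

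For the 3 genes whose group means spanned at least 0.5 on the log2 scale, the genes with the nearest profile over the 8 libraries were found by the root mean square difference of centred log2 values, as a description. Nearest to Dppa2 were Endod1 (0.063), Pde1c (0.082) and Il13ra1 (0.092). Endod1 had 81.1 and 83.6 normalized reads in the untreated control, 83.4 and 82.5 with IAA, 71.7 and 70.6 with wild-type CTCF and 46.0 and 47.5 with mutated CTCF, again with the low libraries in the mutated line. Nearest to Dppa3 were St8sia2 (0.22), Cdx1 (0.31) and Prdm6 (0.33), all less close. Cdx1, a homeobox gene of the early posterior embryo, had 236 and 253 normalized reads in the untreated control, 709 and 752 with IAA, 584 and 607 with wild-type CTCF and 237 and 277 with mutated CTCF. Like Dppa3 it was high with IAA and back near the untreated level in the mutated line. Nearest to Lin28a were Lrrn2 (0.091), Onecut2 (0.096) and Gm20426 (0.098). Lrrn2 had 522 and 547 normalized reads in the untreated control, 615 and 697 with IAA, 927 and 939 with wild-type CTCF and 532 and 545 with mutated CTCF.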

How the data were processed

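The deposited table holds normalized read counts, a signal per gene and library that, from the values, equals a whole number of reads over a single size factor of that library. All values (100%) came within 0.05 read of a whole number, and dividing by the step gave the recovered reads. The listed genes reach 10 reads or more in 2 or more libraries. The submitters' processing notes name mm10, Trim Galore, STAR, featureCounts and DESeq2 without roles or versions, and how these authors counted shared or antisense reads is not given in the sources used here. The table had 0 columns of other samples.

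The 8 genes and the gene lists were chosen with earlier results of these data known. Positions are those of GENCODE M21 on GRCm38, the assembly of mm10, where 16917 of 16940 gene IDs were found (16418 with the same version). A minimum mean of 10 left 15818 genes to test, all 8 genes among them, with limma 3.58.1 (R 4.3.3) on log2(value + 1). The fit had 1 coefficient per group, 4 residual degrees of freedom and empirical Bayes moderation with a mean-variance trend. That moderation draws the SE of each gene towards that of genes of like level and adds to the degrees of freedom. Dppa5a, with wide replicates, thus had an SE of 0.0903, close to the 0.0902 of Dppa4. Benjamini-Hochberg adjustment ran over all tested genes in each of 6 comparisons, with a threshold of 0.05. Adjusted p-values are from this fit unless another setting or a left-out library is named. In those cases the fit and the adjustment were run again. Fold changes on this scale understate those of low genes. The fitting script was tested on simulated data. Counting error treats reads as independent molecules, and no molecular identifiers are mentioned in the labels, so it is the least error a value can have.

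Named besides the 8 genes were, per list and comparison, up to 2 highest and 2 lowest called genes with a mean of at least 50. The nearest tested genes and those within 100 kb, and the 3 nearest profiles of genes spanning at least 0.5, were named as well. Transcript copies were sought with BLAST 2.17.0. The value of the Ctcf gene itself is not reported here, and the degron acts on the protein. Alternatives were pseudocounts of 0.5 and 10, no filter or a minimum mean of 50, median-of-ratios factors, equal totals, only the groups compared, no trend, the replicate number as a block, removal of trends on GC content and gene length, and each library left out.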

Additional observations from a re-analysis of the deposited data

Results flagged for a closer look

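The difference between the mutated and the wild-type line was called for 6 of the 8 genes, which means that their responses to the 2 forms against the shared control with IAA differed by a test of that difference. The log2 fold changes of mutated against wild-type CTCF were -0.68 for Dppa2, -0.78 for Dppa3, -0.85 for Lin28a, -0.27 for Sall4, 0.30 for Nr0b1 and -0.19 for Zfp42. Both libraries of the mutated line lay on the same side of both wild-type libraries for each of these 6 genes. Over all tested genes 34.7% were called in this comparison. The 2 lines are also 2 separately made lines, and the part of that in these differences cannot be told apart from the CTCF form.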

How the results depend on the processing

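Of the log2 fold changes of the 8 genes under settings other than leaving out a library, 487 stayed on the same side of the threshold and in the same direction, 12 gained and 22 lost a call, and 7 changed sign; with a library left out, the counts were 338, 8, 24 and 14. Without the mean-variance trend the calls fell from 6 to 3 between the forms, from 4 to 2 for wild-type CTCF, from 7 to 4 for wild-type CTCF against the untreated control and from 3 to 1 for mutated CTCF against it. Between the forms the calls of Dppa3, Sall4 and Nr0b1 were lost (adjusted p = 0.097, 0.063 and 0.051), and for wild-type CTCF those of Dppa3 and Sall4 (0.10 and 0.075). For mutated CTCF against the control line under IAA that of Zfp42 was lost (0.24), leaving 4 of 5. Against the untreated control they were Dppa2, Dppa5a and Zfp42 for wild-type CTCF (0.10, 0.39 and 0.086) and Dppa4 and Zfp42 for mutated CTCF (0.054 and 0.23). The fold changes stayed the same in that setting. The SE went from 0.090 to 0.20 for Dppa5a and from 0.050 to 0.077 for Sall4. It was nearly the same for Nr0b1 (0.079 and 0.080) and smaller for Dppa4 (0.090 and 0.080). How much of the loss came from the SE was not tested. Over all genes that setting gave 3263, 2379, 4878 and 3869 calls in these comparisons, against 5489, 4991, 6828 and 5975. Leaving out each library gave 1 to 4 calls for mutated CTCF against the untreated control.

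No called value changed sign, other than Dppa5a with wild-type CTCF against the untreated control (-0.040 to 0.53 with a library left out). The other sign changes were in uncalled values, of which the largest was 0.22, for Dppa5a with wild-type CTCF. With GC content and gene length removed, with or without the block, IAA gave 0.021 for Dppa2 and -0.062 for Dppa5a, and mutated CTCF gave -0.0077 for Dppa4 against the control with IAA. With equal totals IAA gave -0.027 for Dppa5a. Leaving out a library gave, for IAA, -0.11 to 0.031 for Dppa2 and -0.056 to 0.10 for Dppa5a. For mutated CTCF against the control with IAA it gave -0.022 to 0.17 for Dppa4, -0.050 to 0.24 for Dppa5a and -0.053 to 0.045 for Sall4. For wild-type CTCF it gave -0.064 to 0.51 for Dppa5a and -0.00088 to 0.14 for Nr0b1. Between the forms it gave -0.41 to 0.16 for Dppa5a. For mutated CTCF against the untreated control it gave -0.026 to 0.26 for Dppa5a and -0.16 to 0.091 for Lin28a.

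Over all tested genes, deviations of libraries of the same replicate number were not correlated (mean r of 0.0037 over 6 pairs of groups, from -0.022 to 0.028). Low genes, with their large counting error, weigh as much as others in that r, so it cannot exclude shared handling. The labels do not say whether libraries of the same number were handled together. With the replicate number as a block, the wild-type line against the IAA control had 5 calls instead of 4, through Dppa5a (0.22, adjusted p = 0.022), and no other call of the 8 genes changed. The count tests edgeR and DESeq2, listed as alternatives, were not run. A check of units did not accept the recovered reads of 1 library, because its size factor was close to 1. The values of all 8 libraries, this one included, came within 0.05 read of a whole number. Dppa3, with 24 to 104 reads a library, is the gene whose precision depth limits most.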

Other observations

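Dppa1, which shares the name and not the group of 8, was chosen after its values were seen. With a mean of 7.95 normalized reads it was below the minimum and was not tested. It had 2.51 and 2.59 normalized reads in the untreated control (3 and 3 recovered reads), 19.1 and 14.3 in the control with IAA (16 and 13 reads), 10.5 and 9.63 with wild-type CTCF (12 and 9 reads) and 1.04 and 3.95 with mutated CTCF (1 and 4 reads). The 2 libraries of the control with IAA were highest and those of the wild-type line next, as for Dppa3.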
